A study of Mus musculus with 2 samples.

Results

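The genes described here are 10 enzymes and partner proteins of eicosanoid and phospholipid metabolism, *Alox5*, *Alox5ap*, *Ltc4s*, *Lta4h*, *Ptgs1*, *Ptgs2*, *Ptges*, *Hpgd*, *Pla2g7* and *Pla2g2d*, chosen by symbol from the 31053 genes in the count tables. Their mRNA was measured by droplet-based single-cell RNA sequencing (scRNA-seq) of adipose tissue macrophages (ATMs) from the epididymal fat of male mice labelled C57/BL6, which the study's methods name as C57BL/6JOlaHsd. The labels name no genetic change in either group and no age, and the study's methods give all its mice the same range of ages as young adults. Mice of the CD group stayed on control diet, and mice of the HFD group received high fat diet in the late afternoon and were culled the next morning. Cells of 3 mice per diet were pooled and sorted as CD45+Lin-Ly6Clow/-F4/80+ macrophages, which gave 1 library per diet. With 1 library per diet there is no replicate, so no p-value was computed, and every interval below is a 95% interval that covers counting error only and not the spread between mice.

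Eicosanoids are short-lived lipid mediators made from arachidonic acid, which phospholipases release from membranes. In the leukotriene branch, 5-lipoxygenase acts with its partner FLAP at the nuclear membrane, and the product is turned either into leukotriene B4, a chemoattractant, or into the cysteinyl leukotrienes. In the prostanoid branch, the cyclooxygenases make prostaglandin H2, from which terminal synthases make prostaglandins and thromboxane, and 15-hydroxyprostaglandin dehydrogenase ends the action of prostaglandin E2. Macrophages of fat and of other tissues are a known source of both classes of mediator, and differ among themselves in which of these enzymes they carry.

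On GRCm38, *Alox5* lies on chromosome 6 from 116410077 to 116461178, *Alox5ap* on chromosome 5 from 149264767 to 149288153, *Ltc4s* on chromosome 11 from 50236461 to 50238616 and *Lta4h* on chromosome 10 from 93453411 to 93484875. The prostanoid genes lie apart: *Ptgs1* is on chromosome 2 from 36230426 to 36252272, *Ptges* on the same chromosome from 30889471 to 30929863, *Ptgs2* on chromosome 1 from 150100031 to 150108227 and *Hpgd* on chromosome 8 from 56294585 to 56321043. *Pla2g7* is on chromosome 17 from 43568098 to 43612201 and *Pla2g2d* on chromosome 4 from 138775735 to 138782046. All 10 are annotated as coding for protein.

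The windows upstream of 3 of the genes are shown because *Ptgs2*, *Pla2g2d* and *Hpgd* were among the genes that differed most between the libraries or between the groups of cells described below. Each is the 250 bases before the start of the RefSeq gene on GRCm38.p6, read 5′ to 3′ on the plus strand, with matches to the searched motifs in capitals.
*Ptgs2*, chr1:150099781-150100030: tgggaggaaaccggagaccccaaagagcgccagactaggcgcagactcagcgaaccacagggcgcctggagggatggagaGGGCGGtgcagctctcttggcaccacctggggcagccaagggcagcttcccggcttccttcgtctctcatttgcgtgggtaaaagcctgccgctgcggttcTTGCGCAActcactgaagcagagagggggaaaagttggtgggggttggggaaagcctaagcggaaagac
*Pla2g2d*, chr4:138775485-138775734: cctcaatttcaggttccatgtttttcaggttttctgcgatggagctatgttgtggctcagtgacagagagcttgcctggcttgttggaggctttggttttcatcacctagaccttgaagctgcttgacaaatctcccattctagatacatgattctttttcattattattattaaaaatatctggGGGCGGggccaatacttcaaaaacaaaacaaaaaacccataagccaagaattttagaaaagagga
*Hpgd*, chr8:56294302-56294551: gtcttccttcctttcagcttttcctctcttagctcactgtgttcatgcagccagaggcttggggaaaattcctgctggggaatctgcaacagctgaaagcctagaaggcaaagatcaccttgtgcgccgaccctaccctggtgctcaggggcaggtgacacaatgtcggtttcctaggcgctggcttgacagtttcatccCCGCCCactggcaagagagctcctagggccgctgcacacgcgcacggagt
The *Ptgs2* window held the C/EBP palindrome TTGCGCAA, 69 bases before the start, a motif found in 0.164% of the 32851 upstream windows of the same length, and a GC box GGGCGG 170 bases before the start. The *Pla2g2d* window held GGGCGG 65 bases before the start, and the *Hpgd* window held its reverse complement CCGCCC 50 bases before the start, a motif in 32.7% of all windows. The window of *Ptgs2* had 61.6% G and C and 13 CpG pairs and that of *Pla2g2d* had 39.6% and 2, beside medians of 52.4% and 6 over all windows. A match describes letters in the window and is not evidence of binding. RefSeq windows were matched for 9 of the 10 genes. The motifs searched on both strands, chosen with these windows in view, also included TATAAA, in 12.4% of all windows, TGANTCA, in 6.75%, TGACGTCA, in 1.55%, GAGGAAGT, in 2.44%, TGCTGAC, in 3.81%, and CCCCACCC, in 9.05%, and none of these 6 was in the windows printed above.

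After limits of 200 to 3500 genes and at most 10% mitochondrial UMIs per cell, 2364 of 4459 CD barcodes and 2021 of 3163 HFD barcodes were kept, with 12284010 and 8086475 UMIs. The HFD cells were shallower, with a median of 2792 UMIs against 4490.5, and 40.8% of them had under 1000 genes against 14.4% in CD. Cells were grouped by gates on single genes, each with at least 1 UMI of the marker, except for *Lyz1*, where at least 10 UMIs were asked for (called Lyz1-high here). *Timd4* and *Lyve1* mark long-lived resident ATMs, *Folr2* a related macrophage state, and *Ccr2*, *Lyz1* and *Plac8* cells closer to monocytes. In CD and HFD, 368 and 72 cells were Timd4+, 1172 and 415 were Lyve1+, 872 and 581 were Folr2+Lyve1-, 1326 and 1131 were Ccr2+, 555 and 672 were Lyz1-high, and 42 and 73 were Plac8+. A cell can be in several gates, and a gate on detected UMIs depends on the depth of the cells. The median depth of Lyve1+ cells was 4052.5 UMIs in CD and 2299 in HFD, below that of all kept cells. Lyz1-high cells, gated at 10 UMIs, had medians of 8205 and 6609. All 7 genes of a macrophage list were detected in both libraries and all 7 genes of a mast cell list, whose cells are a known source of leukotriene C4 synthase, were at 0 UMIs. The CD and HFD libraries shared 14 barcodes, 10 of which were kept in each. The small gates did not hold the same mix of cells in both libraries. Of the Timd4+ cells, 286 of 368 in CD but 28 of 72 in HFD were also Lyve1+. The CD Plac8+ cells carried 533 UMIs of a stromal list of 4 genes (477 of them *Dcn*, with *Pdgfra* at 0), 1952 CPM against 5.06 in HFD Plac8+ cells, and the part of these differences in the ratios of either gate was not tested.

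Levels are UMIs summed over the cells of a gate, divided by all UMIs of those cells and scaled to a total of 1000000 (CPM). The 3′ kit does not count per length of transcript, so levels are compared between cells and libraries but not between genes. A gene was said to be past 2-fold where its CPM ratio was at least 2 in either direction on at least 20 UMIs over both sums.

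In the leukotriene branch, *Ltc4s*, which encodes the synthase that joins leukotriene A4 to glutathione, followed the Lyve1+ cells. In CD it stood at 1226 CPM in Timd4+, 1187 in Lyve1+, 501 in Ccr2+, 381 in Folr2+Lyve1-, 311 (249 to 385) in Plac8+ and 246 (232 to 260) in Lyz1-high cells. In HFD the values were 852 in Timd4+, 756 in Lyve1+, 335 in Folr2+Lyve1-, 169 in Ccr2+, 95.3 in Lyz1-high and 83.5 (57.5 to 117) in Plac8+ cells. Timd4+ and Lyve1+ cells were highest in both libraries and did not differ from each other beyond their intervals, and Lyz1-high and Plac8+ cells were lowest. With cells in both gates left out, *Ltc4s* was 8.93-fold higher in Lyve1+ than in Lyz1-high CD cells (1342 against 150.3 CPM, log2 ratio 3.16, 3.03 to 3.29) and 12.6-fold higher in HFD (1020.4 against 81.0 CPM, 3.66, 3.47 to 3.84). No background was subtracted, and the thinned share of Lyz1-high CD cells with an *Ltc4s* UMI, 17.3%, did not exceed the 28.6% (3.67 to 71.0) of 7 endothelial-marker cells, so the lower level in both ratios is not shown to be expression. Over all kept cells it was lower in HFD, at 275 (263 to 286) against 692 (677 to 707) CPM, a log2 ratio of -1.33 (-1.40 to -1.27). Within gates the log2 ratio differed: it was -0.65 (-0.75 to -0.56) in Lyve1+ and -0.19 (-0.31 to -0.06) in Folr2+Lyve1- cells, and -1.57 (-1.67 to -1.47) in Ccr2+ cells. The 95 CD and 230 HFD Ccr2+ cells in no other gate were at 125 and 110 CPM, much closer together. Folr2+ cells outside the Plac8+, Lyz1-high, Timd4+ and Lyve1+ gates were above them, at 550 and 494 CPM. In Lyz1-high cells the log2 ratio was -1.37 (-1.53 to -1.21), and -0.89 (-1.09 to -0.69) once the cells that were also Lyve1+ were left out, so the call past 2-fold there rested on cells in both gates.

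*Alox5*, the 5-lipoxygenase that starts leukotriene synthesis, was likewise highest in the resident gates, over a narrower range. The CD levels were 123 (107 to 141) CPM in Timd4+, 118 (109 to 127) in Lyve1+, 80.1 in Ccr2+, 73.1 in Folr2+Lyve1-, 69.7 in Lyz1-high and 43.9 (22.7 to 76.8) in Plac8+ cells. In HFD it was 92.7 (60.6 to 136) CPM in Timd4+, 69.0 in Lyve1+, 40.3 in Folr2+Lyve1-, 35.9 in Ccr2+, 33.9 in Lyz1-high and 20.2 (8.74 to 39.9) in Plac8+ cells. Timd4+ and Lyve1+ cells were again highest, and the 3 gates in the middle overlapped in their intervals in each library. Ccr2+ cells in no other gate were at 32.3 CPM in CD and 19.6 in HFD, with no interval computed. *Alox5* was 0.96 (0.73 to 1.18) higher on the log2 scale in Lyve1+ than in Lyz1-high CD cells and 1.32 (0.90 to 1.73) in HFD. Summed over every kept cell it was 40.1 CPM (35.8 to 44.7) in HFD and 88.3 (83.1 to 93.7) in CD, a log2 ratio of -1.14 (-1.32 to -0.96). Within gates the ratio was -0.77 (-1.10 to -0.46) in Lyve1+ and -1.04 (-1.32 to -0.76) in Lyz1-high cells, and without the cells in both gates -0.60 and -0.96, both short of 2-fold.

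The partners of *Alox5* did not share this pattern. *Alox5ap*, which encodes FLAP, was 888 CPM in CD and 883 in HFD over all kept cells, a log2 ratio of -0.01 (-0.05 to 0.04), and was lower in Lyve1+ than in Lyz1-high cells, at 764 against 1086 CPM in CD (-0.51) and 614 against 1035 in HFD (-0.75). *Lta4h*, whose product hydrolyses leukotriene A4 to leukotriene B4, was 39.1 CPM in CD and 37.7 in HFD (log2 ratio -0.05, -0.26 to 0.16), and its Lyve1+ over Lyz1-high ratio in CD was -0.75. Its HFD ratio was -0.27. The CD ratio of *Lta4h* kept its sign in 14 of 16 alternatives and was 0.11 with cells thinned to equal depth. After thinning, 2.66% (1.81 to 3.75) of Lyve1+ and 2.70% (1.52 to 4.42) of Lyz1-high CD cells had an *Lta4h* UMI. Its direction between these gates is thus not settled, and the part of depth in it was not tested. In Timd4+ cells alone *Lta4h* was higher in HFD, at 71.3 (43.6 to 110) against 28.5 (21.0 to 37.9) CPM, a log2 ratio of 1.32 (0.49 to 2.10) that rests on 20 HFD and 48 CD UMIs. In the Timd4+ cells that were also Lyve1+ it was 91.8 (44.0 to 169) against 27.9 CPM, and in those that were not 58.3 (28.0 to 107) against 30.9, each on 10 HFD UMIs.

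**Figure D1:**
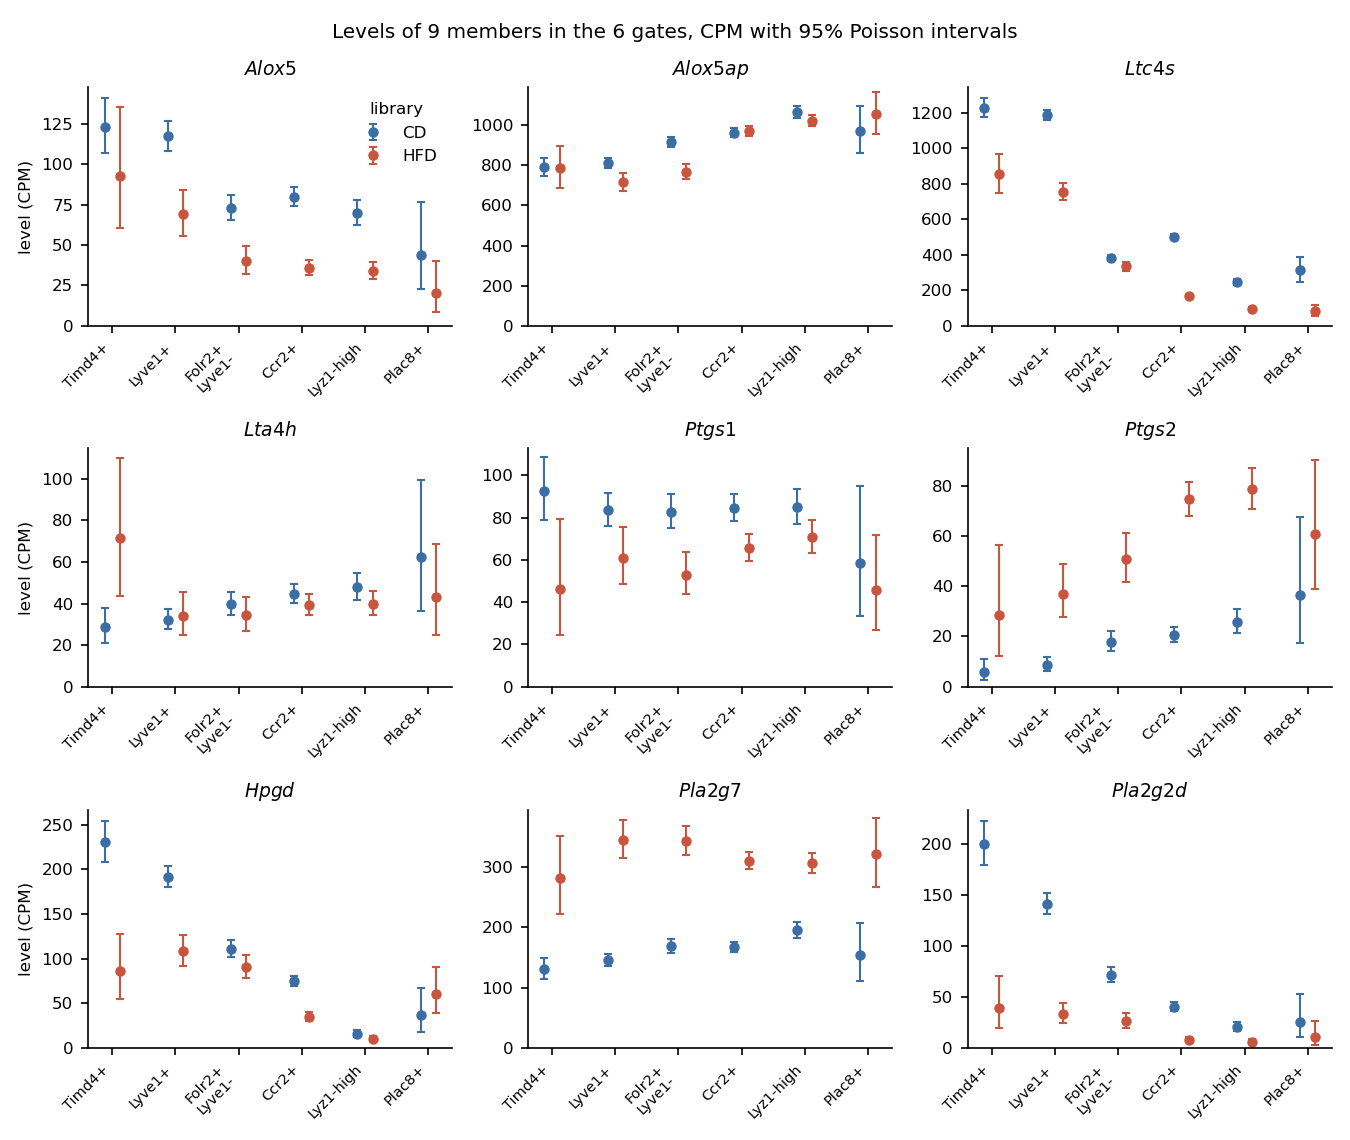
Levels of 9 of the 10 genes (*Ptges*, with 9 UMIs, is not drawn) in the 6 gates, as CPM from 0 with 95% Poisson intervals, CD in blue and HFD in red, 1 library each. *Ltc4s*, *Hpgd* and *Pla2g2d* are highest on the left, in Timd4+ and Lyve1+ CD cells, and *Ptgs2* is higher in HFD in each gate.

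Of the cyclooxygenases, *Ptgs2* (the inducible COX-2) was the gene with the larger difference between the libraries. In the sum of all kept cells it was 64.4 CPM (59.0 to 70.2) in HFD and 16.6 (14.4 to 19.0) in CD, 3.88-fold higher with a log2 ratio of 1.96 (1.72 to 2.20). In CD it ran from 5.95 (2.85 to 10.9) CPM in Timd4+ and 8.75 in Lyve1+ through 17.9 in Folr2+Lyve1- and 20.6 in Ccr2+ to 25.8 in Lyz1-high and 36.6 (17.6 to 67.3) in Plac8+ cells, and in HFD from 28.5 (12.3 to 56.2) and 37.0 through 50.8 and 74.5 to 78.6 and 60.7 (38.9 to 90.4). Timd4+ and Lyve1+ cells, the highest gates for *Ltc4s*, were thus the lowest for *Ptgs2* in both libraries, although these neighbours overlapped in their intervals. Ccr2+ cells in no other gate (95 in CD and 230 in HFD) were at 34.3 and 109 CPM. Lyz1-high cells outside the Plac8+ gate were at 25.9 and 77.7. Timd4+ cells outside the Plac8+ and Lyz1-high gates were at 2.86 and 5.64 CPM, and Lyve1+ cells outside these and the Timd4+ gate at 7.78 and 11.1. No interval was computed for these levels. Within gates the HFD over CD log2 ratio was 2.08 (1.48 to 2.68) in Lyve1+, 1.5 (1.09 to 1.92) in Folr2+Lyve1-, 1.85 in Ccr2+ and 1.60 (1.31 to 1.91) in Lyz1-high cells. The value in Lyve1+ cells rested on cells that were also Lyz1-high: without them 12 of the 51 HFD UMIs and 29 of the 47 CD UMIs remained, at 13.1 against 6.76 CPM, a log2 ratio of 0.95 (-0.16 to 1.96). In Lyz1-high cells that were not Lyve1+, *Ptgs2* was 77.8 against 28.5 CPM, a ratio of 1.45 (1.13 to 1.78).

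The UMIs of *Ptgs2* came from few cells. In CD 104 cells held its 204 UMIs and the top 23 cells held 52.9% of them, and in HFD 228 cells held 521 UMIs and the top 20 held 29.2%. With each cell thinned to 800 UMIs, which left out 30 CD and 147 HFD cells below that depth, 0.900% (0.558 to 1.37) of CD and 3.79% (2.97 to 4.76) of HFD cells had a *Ptgs2* UMI, beside 4.40% and 11.3% before thinning. In Lyz1-high cells the thinned shares were 1.44% (0.624 to 2.82) and 5.51% (3.91 to 7.51), and in Lyve1+ cells 0.772% (0.354 to 1.46) and 0.995% (0.272 to 2.53). At equal depth the shares in Lyz1-high cells lay apart, and those in Lyve1+ cells overlapped in their intervals. Of 8 CD and 4 HFD cells with endothelial markers, with median depths of 4517 and 779.5 UMIs, 0 had a UMI of *Ptgs2*, *Hpgd*, *Pla2g7* or *Pla2g2d*, which after thinning allows a share of up to 41.0% in the 7 CD cells left, and 4 of the 8 had *Ltc4s*. So few cells set no firm background.

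*Ptgs1* (COX-1, the constitutive cyclooxygenase) differed little. It was 82.5 CPM (77.5 to 87.8) in CD and 63.1 (57.7 to 68.8) in HFD over all kept cells, a log2 ratio of -0.39 (-0.54 to -0.23), and in CD 5 of the 6 gates lay between 82.7 and 92.8 CPM. Its Lyve1+ over Lyz1-high ratio was -0.03 (-0.25 to 0.20) in CD and -0.32 in HFD. The only gate past 2-fold between the libraries was Timd4+, at 46.4 against 92.8 CPM, a log2 ratio of -1.0 (-1.94 to -0.18) on 13 HFD UMIs. *Ptges*, a terminal synthase of prostaglandin E2, had 7 UMIs in CD and 2 in HFD, 0.570 (0.229 to 1.17) and 0.247 (0.0300 to 0.893) CPM, and no difference could be read at this depth.

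*Hpgd*, the dehydrogenase that inactivates prostaglandin E2, was high in resident gates and low in Lyz1-high cells. In CD it was 231 (208 to 255) CPM in Timd4+, 192 (180 to 204) in Lyve1+, 111 in Folr2+Lyve1-, 74.5 in Ccr2+, 36.6 (17.6 to 67.3) in Plac8+ and 16.0 (12.6 to 20) in Lyz1-high cells. In HFD it was 108 (91.5 to 127) CPM in Lyve1+, 90.1 in Folr2+Lyve1-, 85.6 (54.8 to 127) in Timd4+, 60.7 in Plac8+, 34.6 in Ccr2+ and 9.79 in Lyz1-high cells. In both libraries Lyz1-high cells were lowest, and the 3 highest gates of HFD overlapped in their intervals. High levels were not limited to the resident gates: cells in no gate were at 136 (74.5 to 229) CPM in CD, on 14 UMIs, and 131 (97.6 to 172) in HFD, on 51. A list of 5 endothelial genes stood at 1032 CPM in these CD cells and 97.7 in these HFD cells, against 21.9 over all kept CD cells. The part of endothelial cells in these levels was not tested. With cells in both gates left out, *Hpgd* was 19.0-fold higher in Lyve1+ than in Lyz1-high CD cells (232.9 against 12.2 CPM, log2 ratio 4.25, 3.82 to 4.72) and 19.1-fold higher in HFD (148 against 7.73 CPM, 4.26, 3.69 to 4.86). The lower levels rest on 45 and 32 UMIs, and the difference between the libraries in this ratio was not tested. Between the libraries, *Hpgd* was 60.2 CPM (55.0 to 65.8) in HFD and 133 (126 to 139) in CD over all kept cells, a log2 ratio of -1.14 (-1.29 to -0.99). The ratio was past 2-fold in Timd4+ cells, at -1.43, and in Ccr2+ cells, at -1.11 (-1.33 to -0.88), and short of it in Lyve1+ cells, at -0.83 (-1.08 to -0.58), in Lyz1-high cells, at -0.70, and in Folr2+Lyve1- cells, at -0.30. The 95 CD and 230 HFD Ccr2+ cells in no other gate were at 28.2 and 77.3 CPM, so the lower HFD level was not seen in them. In Plac8+ cells the log2 ratio had the other sign, at 0.73 (-0.39 to 1.96) on 24 HFD and 10 CD UMIs. In each library *Hpgd* was lowest in Lyz1-high cells and *Ptgs2* in Timd4+ cells.

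**Figure D2:**
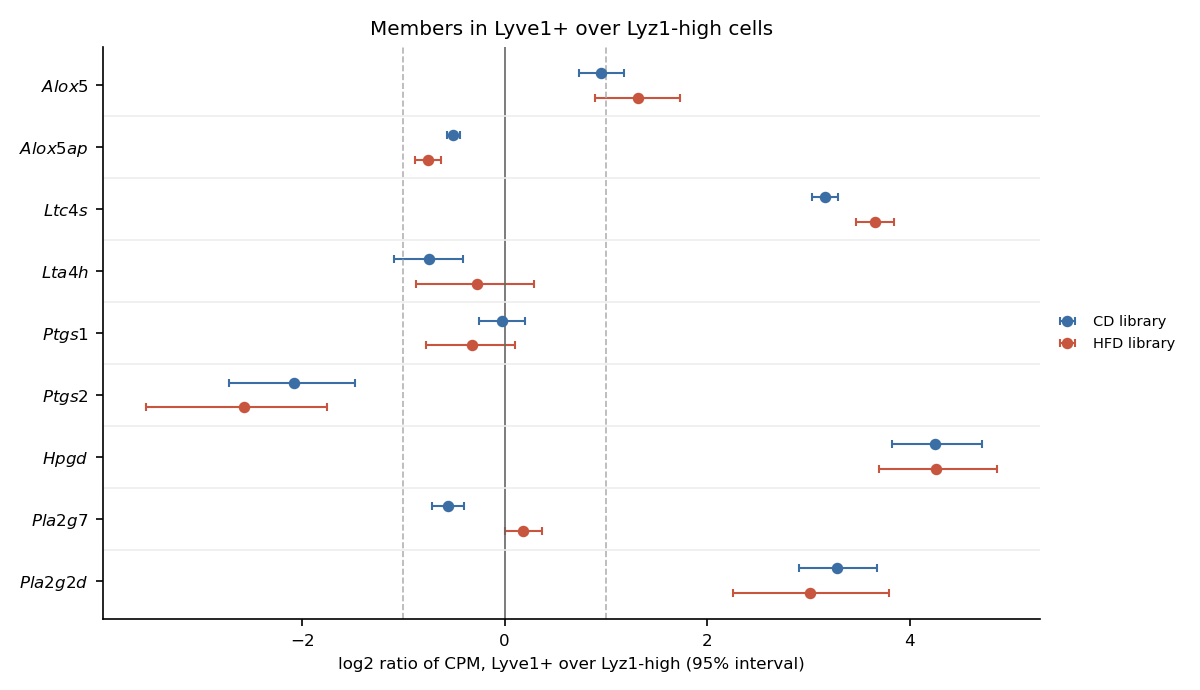
Log2 ratio of CPM in Lyve1+ over Lyz1-high cells for 9 genes, with 95% intervals and cells in both gates left out, CD in blue and HFD in red. *Ltc4s*, *Hpgd* and *Pla2g2d* lie right of the dashed line at 1 in both libraries, and *Ptgs2* lies left of the line at -1.

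Of the phospholipases, *Pla2g2d*, a secreted phospholipase A2 of resident macrophages and dendritic cells, had the lowest ratio between the libraries. With all kept cells summed it was 17.7 CPM (14.9 to 20.8) in HFD and 92.6 (87.3 to 98.2) in CD, a log2 ratio of -2.39 (-2.65 to -2.14). In CD it was 200.4 (180 to 223) CPM in Timd4+, 141 (131 to 152) in Lyve1+, 71.7 in Folr2+Lyve1-, 40.1 in Ccr2+, 25.6 (10.3 to 52.8) in Plac8+ and 20.6 (16.7 to 25.1) in Lyz1-high cells, each apart from the next but for Plac8+ cells, whose wide interval overlapped both neighbours. In HFD it was 39.2 (19.6 to 70.2) CPM in Timd4+, 32.7 in Lyve1+, 26.1 in Folr2+Lyve1-, 10.1 in Plac8+, 7.77 in Ccr2+ and 5.66 in Lyz1-high cells. Cells in no gate were at 39.0 (10.6 to 99.7) CPM in CD, on 4 UMIs, and 41.1 (23.5 to 66.8) in HFD, on 16. *Pla2g2d* was lower in HFD in each gate as drawn, with overlaps, at log2 ratios of -2.35 (-3.37 to -1.5) in Timd4+, -2.11 (-2.58 to -1.68) in Lyve1+, -1.46 (-1.89 to -1.05) in Folr2+Lyve1-, -2.37 in Ccr2+ and -1.86 (-2.55 to -1.23) in Lyz1-high cells, while Plac8+ cells held 4 HFD and 7 CD UMIs, too few for a call. The 95 CD and 230 HFD Ccr2+ cells in no other gate were low in both libraries, at 6.05 and 9.82 CPM. No interval was computed for these low levels, so no direction between the libraries is read from them. Without the cells in both gates the log2 ratio was -1.85 (-2.33 to -1.41) in Lyve1+ and -1.58 (-2.33 to -0.89) in Lyz1-high cells, still past 2-fold. Its Lyve1+ over Lyz1-high ratio was 9.72-fold in CD (169 against 17.4 CPM) and 8.06-fold in HFD (46.8 against 5.80 CPM). Within Lyve1+ CD cells, *Pla2g2d* was also higher where *Timd4* was detected, at 225 against 114 CPM, a log2 ratio of 0.98 (0.77 to 1.19), beside 0.36 for *Hpgd*, 0.29 for *Ltc4s* and -0.27 for *Pla2g7*. In HFD, with 28 Lyve1+ cells that were Timd4+, the same ratios were 0.18 (-1.76 to 1.65) for *Pla2g2d* on 4 UMIs, 0.03 (-0.96 to 0.88) for *Hpgd*, 0.81 (0.54 to 1.07) for *Ltc4s* and -0.90 (-1.60 to -0.27) for *Pla2g7*.

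*Pla2g7*, which encodes the platelet-activating factor acetylhydrolase that circulates on lipoproteins, had the opposite direction. Over all kept cells it was 317 CPM (305 to 330) in HFD and 161 (154 to 168) in CD, a log2 ratio of 0.98 (0.89 to 1.06), just short of 2-fold. In CD it was 196 in Lyz1-high, 169 in Folr2+Lyve1-, 168 in Ccr2+, 154 (111 to 208) in Plac8+, 145 in Lyve1+ and 130.2 (114 to 149) CPM in Timd4+ cells, and in HFD the 6 gates lay between 282 (223 to 351) in Timd4+ and 346 (315 to 378) in Lyve1+ cells. *Pla2g7* was higher in HFD in all 6 gates. The log2 ratio was 1.25 (1.08 to 1.42) in Lyve1+, 1.11 in Timd4+, 1.02 in Folr2+Lyve1-, 1.06 in Plac8+, 0.89 in Ccr2+ and 0.65 (0.53 to 0.77) in Lyz1-high cells. The ratio of Lyve1+ over Lyz1-high cells was -0.56 (-0.72 to -0.40) in CD and 0.19 (0.00 to 0.37) in HFD. The HFD ratio turns to -0.15 when both gate sums are scaled by TMM, a scaling that sets aside genes with extreme ratios. After thinning, 11.3% (10.0 to 12.6) of CD and 23.4% (21.5 to 25.4) of HFD cells had a *Pla2g7* UMI, beside 44.9% and 55.1% before.

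**Figure D3:**
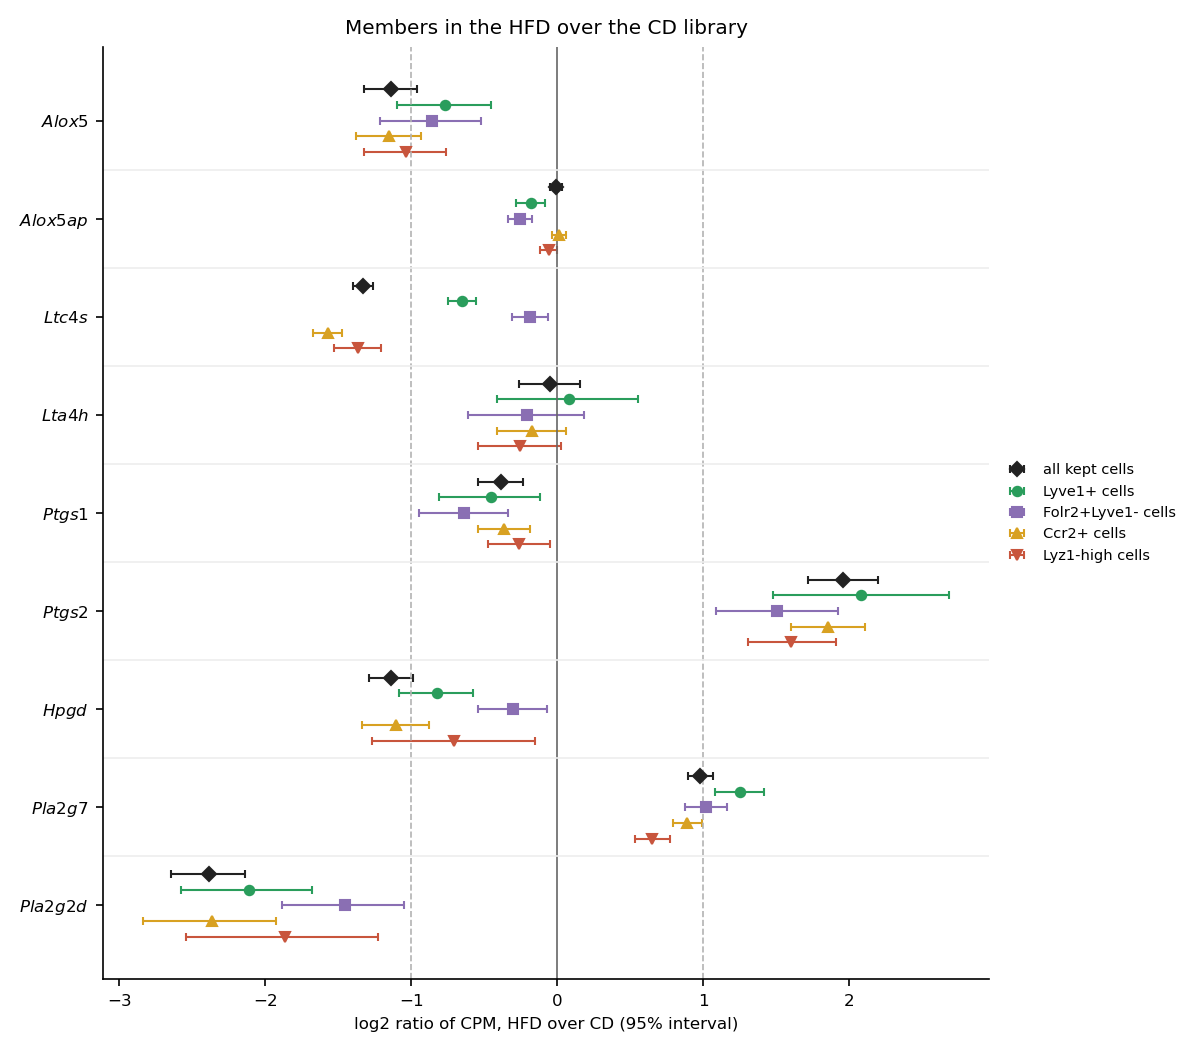
Log2 ratio of CPM in HFD over CD for 9 genes, in all kept cells and in 4 gates, with 95% intervals and dashed lines at 2-fold. *Ptgs2* is past the line at 1 in all 5 sets of cells drawn, *Pla2g2d* past the line at -1 in all 5, and *Ltc4s* spreads from -1.57 in Ccr2+ to -0.19 in Folr2+Lyve1- cells. The gates overlap, and most Ccr2+ cells are also in other gates.

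Counted over the 9 members with at least 20 UMIs, 1 was past 2-fold higher and 4 were past 2-fold lower in HFD over all kept cells, where 2.12% of all 11170 genes tested were higher and 5.48% lower. In Lyve1+ cells 2 were higher (*Ptgs2*, *Pla2g7*) and 1 lower (*Pla2g2d*), against 2.52% and 4.93% of all genes. In Folr2+Lyve1- cells the same genes were past 2-fold, 2 higher and 1 lower, against 2.43% and 3.61%. In Ccr2+ cells 1 was higher and 4 lower (1.78% and 4.86% of all genes), and in Lyz1-high cells 1 was higher and 3 lower (1.92% and 2.86%). Without the cells in both gates, 1 was higher and 1 lower in Lyve1+ cells, and likewise 1 and 1 in Lyz1-high cells. The shares of all genes past 2-fold were not listed for these 2 sets, of 9341 and 9345 genes tested. These member counts therefore cannot be set beside a share of all genes. *Hpgd*, lower in HFD in the Ccr2+ gate, was not lower in the Ccr2+ cells that were in no other gate. For *Pla2g2d* no direction was read in those cells, where its levels were low and had no interval. In the small gates, with 8 members on enough UMIs, 2 were higher and 3 lower in Timd4+ cells (4.21% and 10.8%), and 1 higher and 2 lower in Plac8+ cells (4.38% and 4.51%). The median log2 ratio of all genes over all kept cells was -0.02. Between Lyve1+ and Lyz1-high cells, 3 members were higher and 1 lower in CD, against 17.4% and 6.21% of all genes, and 4 higher and 1 lower in HFD, against 15.3% and 6.95%. In that comparison the median of all genes was 0.26 in CD and 0.24 in HFD, and 0.03 and -0.09 with TMM, so the ratios of Lyve1+ over Lyz1-high cells are read relative to these shifts, which are small beside those of *Ltc4s*, *Hpgd*, *Pla2g2d* and *Ptgs2*.

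The share of each gate differed between the libraries along with these levels. Lyve1+ cells made up 49.6% of kept CD and 20.5% of kept HFD cells, and Timd4+ cells 15.6% and 3.56%. In no gate were 43 CD cells (1.82%) and 272 HFD cells (13.5%), with median depths of 1361 and 1020.5 UMIs. The summed level of a list of 10 resident macrophage genes was 9103 CPM in CD and 3981 in HFD over all cells, and 14509 and 8975 within Lyve1+ cells, so a gate on 1 UMI did not hold that list level. The exclusive gates of HFD, with cells in no gate as a further group, were then weighted to their shares of UMIs in CD. With these weights the log2 ratios became -0.42 for *Ltc4s*, -0.58 for *Hpgd*, -0.71 for *Alox5*, -1.68 for *Pla2g2d*, 1.40 for *Ptgs2* and 1.01 for *Pla2g7*. The differences of *Ltc4s*, *Hpgd* and *Alox5* were thus under 2-fold at equal gate shares, while those of *Pla2g2d* and *Ptgs2* were past it. That of *Pla2g7* lay close to 2-fold with these weights and without them, at 1.01 and 0.98. A list of dissociation and heat shock genes stood at 16979 CPM in CD and 16916 in HFD over all cells and at 19369 and 20701 in Lyve1+ cells. Of 4 platelet genes, *Ppbp* was at 3.83 CPM in CD and 19.0 in HFD, *Itga2b* at 3 and 0 UMIs, and *Gp9* and *Gp1bb* at 0 in both, and the part of *Ppbp* in any of these results was not tested.

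**Figure D4:**
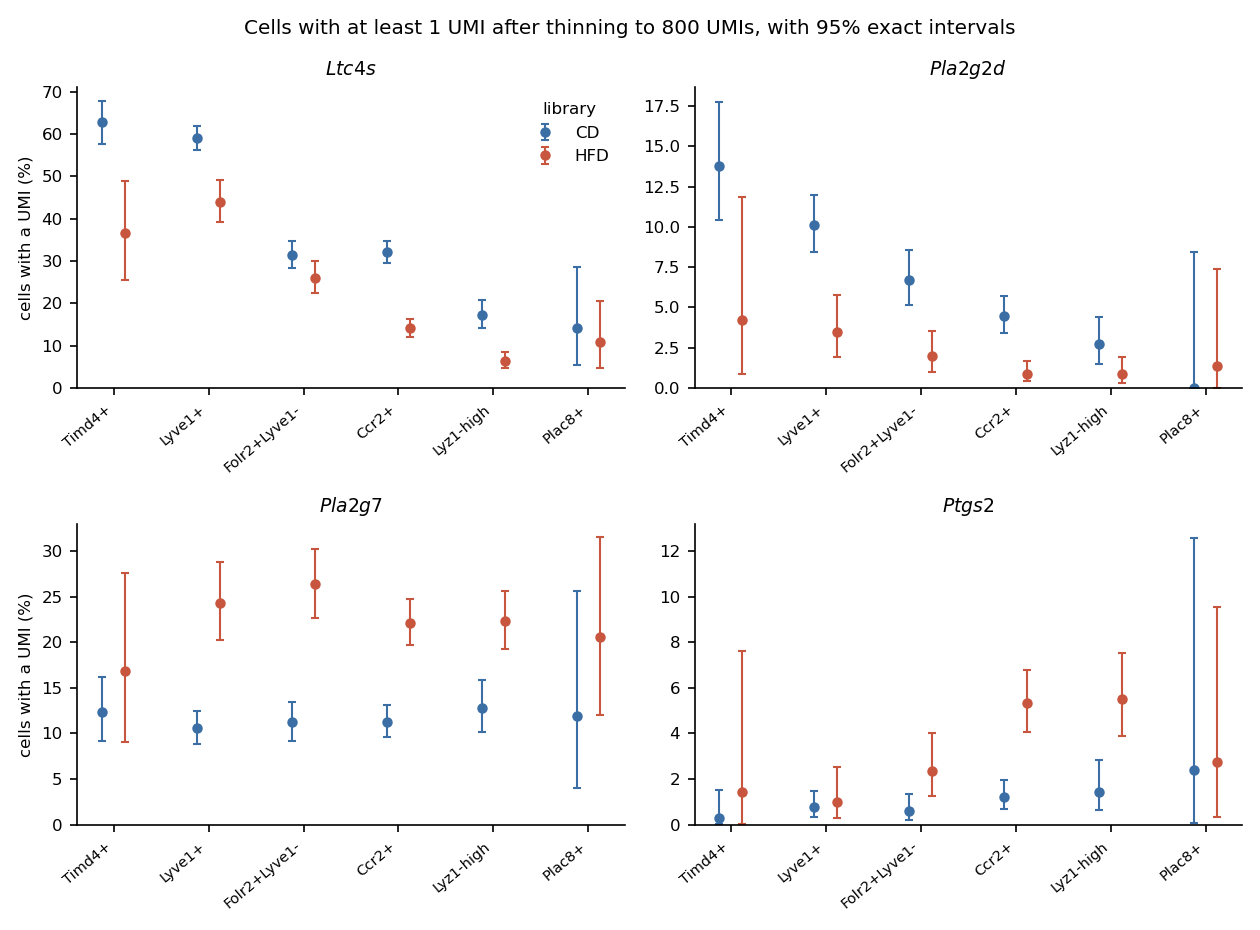
Percent of cells with a UMI of *Ltc4s*, *Pla2g2d*, *Pla2g7* or *Ptgs2* after each cell was thinned to 800 UMIs, by gate, with exact 95% binomial intervals, CD in blue and HFD in red. In Lyve1+ cells *Ltc4s* was seen in 59.0% of CD and 44.0% of HFD cells.

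Over all cells, *Ltc4s* and *Pla2g2d* were seen in fewer and *Pla2g7* and *Ptgs2* in more HFD than CD cells before and after thinning. *Ltc4s* was seen in 42.6% of CD and 21.7% of HFD cells after thinning (74.8% and 41.3% before), in 59.0% (56.1 to 61.8) and 44.0% (39.1 to 49.0) of Lyve1+ cells, and in 17.3% and 6.40% of Lyz1-high cells. *Pla2g2d* was seen in 7.71% and 2.13% of all cells (25% and 5.54% before). In Timd4+ cells it was seen in 13.8% (10.4 to 17.8) and 4.23% (0.880 to 11.9, 3 of 71 HFD cells), with overlapping intervals. In Plac8+ cells the order turned, from 7.14% and 2.74% before to 0 of 42 cells (interval up to 8.41%) and 1.37% after. *Hpgd* was seen in 16.0% (14.0 to 18.3) and 12.7% (9.59 to 16.3) of Lyve1+ cells, a smaller gap than the 50.3% and 25.3% before thinning. In Lyz1-high cells it was seen in 1.80% (0.867 to 3.29) and 1.04% (0.420 to 2.13). In both gates the intervals of the libraries overlapped. The endothelial-marker CD cells with *Ltc4s* were 2 of 7 after thinning, 28.6%, and 0 of 2 in HFD. Below that CD share lay the Lyz1-high and Plac8+ cells of CD and the Folr2+Lyve1-, Ccr2+, Lyz1-high and Plac8+ cells of HFD, and its wide interval does not show whether *Ltc4s* UMIs in those gates are expression or background.

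The genes whose profile over the 12 exclusive gate sums (6 per library) was most like that of a member were named by Pearson correlation of log levels across these sums, which share libraries and depth. *Ltc4s* was most like *Bin1* (0.986), *Rab11fip5* (0.978) and *Timp2* (0.975). *Alox5* was most like *Timp2* (0.942), *Cd209f* (0.914), a lectin of resident macrophages, and *Ltc4s* itself (0.912). *Hpgd* was most like *Ehd4* (0.967), *Atf3* (0.959) and *Ms4a7* (0.953). *Ptgs2* was most like *Prkcd* (0.968), *Emb* (0.950) and *Rgs2* (0.950), and *Ptgs1* most like *Lamtor2* (0.901). The nearest gene was *Rps28* (0.957) for *Alox5ap*, *Eif3m* (0.907) for *Lta4h* and *Ccl9* (0.967) for *Pla2g7*. *Pla2g2d* and *Ptges* had too few UMIs in HFD for this comparison. Only genes with at least 500 UMIs in each library were searched, so *Alox5*, *Lta4h*, *Ptgs2*, *Ptges*, *Hpgd* and *Pla2g2d* could not be named as near genes. Of the members that could, *Ltc4s* alone was named, for *Alox5*.

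Of 67 other genes listed for the pathway, 65 were found and 46 had at least 20 UMIs over both libraries, of which 2 were past 2-fold higher and 10 lower in HFD, beside 2.12% and 5.48% of all genes. By list, 0 were higher and 3 lower of 11 genes of arachidonate release, 1 and 2 of 9 leukotriene and lipoxygenase genes, 0 and 2 of 11 prostanoid synthases, 0 and 2 of 4 genes of inactivation and export, and 1 and 1 of 11 genes of the receptor list. That list also names *Anxa1*, which encodes a ligand. Their median log2 ratio was -0.16, beside -0.02 for all genes. *Alox15*, the 12/15-lipoxygenase, was higher in HFD at 26.5 against 4.80 CPM (2.46), and all of its 121 UMIs in HFD Timd4+ cells lay in cells that lacked *Lyve1*, where *Gata6*, a defining gene of peritoneal macrophages, had 2 UMIs; the part of such cells in the *Alox15* value was not tested. *Ptger2*, a receptor of prostaglandin E2, was higher at 38.5 against 14.6 CPM (1.40). *Cbr2*, a carbonyl reductase that is also in the list of resident genes, was lower at 67.1 against 452 CPM (-2.75), as were *Fam213b*, a prostamide and prostaglandin F synthase, at 33.9 against 103 (-1.61), *Pla2g16*, a phospholipase of adipocytes and other cells, at 20.3 against 50.8 (-1.32) and *Ptgr1*, which inactivates leukotriene B4 and prostaglandins, at 11.5 against 27.4 (-1.25). *Abhd6*, a monoacylglycerol lipase, was lower at 3.71 against 11.6 CPM (-1.65), and *Ggt5*, which turns leukotriene C4 into D4, at 9.89 against 19.9 (-1.01). Named for their roles after their values were seen, the thromboxane synthase *Tbxas1* was 144 CPM in CD and 147 in HFD, and the leukotriene B4 receptor *Ltb4r1* was 76.3 and 124 (0.70), short of 2-fold.

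Between the gates, these genes differed in both directions. In CD, 14 of 39 were past 2-fold higher and 6 lower in Lyve1+ than in Lyz1-high cells, and in HFD 10 and 6 of 37, where 17.4% and 6.21% of all genes were higher and lower in CD and 15.3% and 6.95% in HFD. Their medians were 0.46 in CD and 0.11 in HFD, beside 0.26 and 0.24 for all genes. *Hpgds*, the synthase of prostaglandin D2 in blood cells, was higher in Lyve1+ cells with log2 ratios of 3.44 in CD and 4.63 in HFD, beside the *Ltc4s* values above. The prostaglandin F synthase *Fam213b* was higher at 2.66 and 2.37, *Ggt5* at 2.73 and 2.40, *Cbr2* at 4.06 and 4.66 and the aldo-keto reductase *Akr1b8* at 3.92 and 2.94. *Ltb4r1* was lower in Lyve1+ cells at -3.93 and -3.29, *Ptgir*, the prostacyclin receptor, at -2.59 and -1.53, and the steroid and prostaglandin reductase *Akr1c18* at -6.27 and -3.81. *Ptger2* was at -2.56 and -1.51 and *Tbxas1* at -0.04 and -0.02. The 9 genes of the receptor list did not share a direction: 2 were past 2-fold higher and 4 lower in CD, and 2 and 3 in HFD. The receptors higher in Lyve1+ cells, named after their values were seen, were *Ptger4*, another receptor of prostaglandin E2, at 1.59 and 2.01, and *Cmklr1*, the chemerin receptor, at 1.64 and 2.24, so that *Ptger2* and *Ptger4* had opposite signs.

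**Figure D5:**
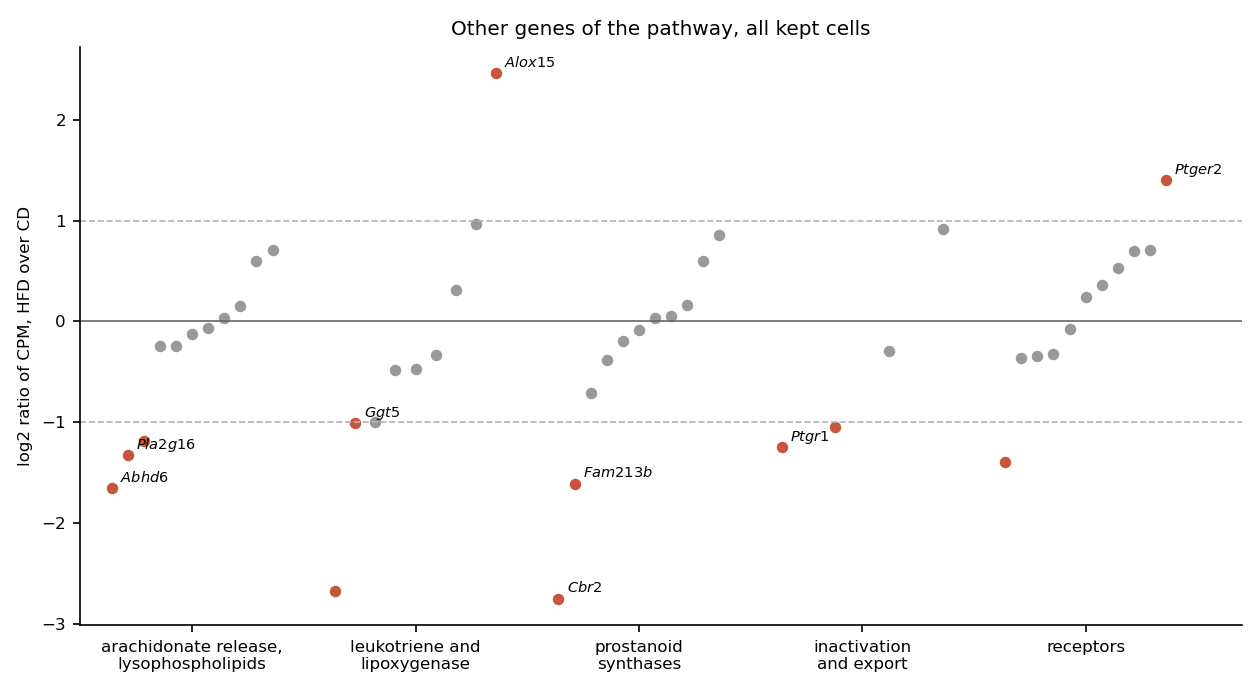
Log2 ratio of CPM in HFD over CD over all kept cells for the 46 other pathway genes with at least 20 UMIs, in 5 lists and ordered by ratio within each. Red points are past 2-fold, and those with at least 100 UMIs are named; *Alox15* (2.46) is highest and *Cbr2* (-2.75) lowest.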

How the data were processed

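ATMs were profiled with a 3′ single-cell kit of 10x Genomics, 1 library per diet from 3 pooled mice. The deposited values are raw UMI counts for each gene in each barcode, which the authors obtained with Cell Ranger 3.0.2 and the mm10 genome and did not normalize. Since a 3′ kit counts transcripts and not their length, CPM is not compared between genes.

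Cells with 200 to 3500 genes and at most 10% mitochondrial UMIs were kept with Python 3.11.15, numpy 2.4.6, scipy 1.17.1 and pandas 2.3.3. These limits are close to the study's limits per cell, which leave 2364 CD and 1993 HFD cells. The study then also left out clusters of endothelial cells, of peritoneal macrophages, or with a median of under 1000 genes. That step was not repeated here. Scrublet (scanpy 1.11.5) called 0 CD and 2 HFD doublets, so doublets were kept and the highest scores left out in an alternative. Levels carry exact Poisson intervals, ratios exact conditional binomial intervals and shares exact Clopper-Pearson intervals. Only the ratio intervals were tried on simulated counts, for HFD over CD in all kept cells. Those counts held counting error alone, so they do not test the spread between mice. The named genes were the 10 members, the 3 genes most like a member with at least 200 UMIs in each library among genes with at least 500, and at most 8 pathway genes a comparison by size, past 2-fold with at least 100 UMIs between diets or in 1 direction in both libraries between gates; *Tbxas1*, *Ltb4r1* between diets and *Ptger2*, *Ptger4* and *Cmklr1* between gates were added after their values were seen. The members, gates and lists were chosen with earlier results of these data known. The splits of Lyve1+ cells by *Timd4*, the comparisons without cells in 2 gates, the weighting to CD gate shares and the motifs were chosen after seeing the counts. Alternatives changed the limits on cells, depth, scaling, the gates and the minimum of UMIs. Clusters of the study were not rebuilt here.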

Additional observations from a re-analysis of the deposited data

Results flagged for a closer look

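The barcodes outside the limits on genes and mitochondrial UMIs were in no comparison above. In them *Ptgs2* was again higher in HFD, at 74.2 against 23.5 CPM, a log2 ratio of 1.66 (95% counting interval 1.16 to 2.15), and *Pla2g7* was higher at 266 against 109 CPM, a log2 ratio of 1.29 (1.05 to 1.52). These barcodes come from the same 2 libraries, so they are not a replicate.

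*Pla2g7* lay in opposite directions in the libraries when Lyve1+ cells were set against Lyz1-high cells: the log2 ratio was -0.56 in CD and 0.19 in HFD. The difference between these ratios was not tested, and with TMM scaling the HFD ratio is -0.15.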

How the results depend on the processing

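No paired analysis was possible because each diet has 1 library, and for the same reason no replicate could be left out. Of 691 values of the members under alternatives, 587 moved by less than their counting interval, 104 moved further and 0 turned a called direction. These values covered HFD over CD in all kept, Lyve1+ and Lyz1-high cells, and Lyve1+ over Lyz1-high cells in each library. Diet ratios of the Timd4+, Folr2+Lyve1-, Ccr2+ and Plac8+ gates were not among them. In Ccr2+ cells in no other gate, *Hpgd* lay opposite to its called direction in the Ccr2+ gate, and no direction was read for *Pla2g2d*. Over all kept cells the members past 2-fold higher went from 1 to 2, *Pla2g7* joining *Ptgs2*, with at most 20% mitochondrial UMIs, with thinning, with TMM, without the 20 most abundant genes and with cells weighted equally, and those lower from 4 to 2 with cells weighted equally, to 3 with thinning (without *Hpgd*) and to 5 with no minimum of UMIs (with *Ptges*). In Lyve1+ cells the members lower in HFD went from 1 to 2 at 5% mitochondrial UMIs, with at least 1000 genes and with no minimum of UMIs, those higher from 2 to 1 with thinning, with exclusive gates and with gates set after thinning, and in cells at or under the median share of stress genes, an alternative chosen after seeing the data, 3 were lower and 5 in all past 2-fold in place of 3. In Lyz1-high cells gates set after thinning gave 2 higher and 1 lower, and *Alox5* was no longer past 2-fold without the highest Scrublet scores, which left 2 lower. Between Lyve1+ and Lyz1-high cells, the members lower went from 1 to 0 in CD with thinning and with gates set after thinning, and from 1 to 2 in HFD with these, with TMM and with no minimum of UMIs. The CD ratio of *Ptgs2* in that comparison was -1.05 or lower in all 16 alternatives. With thinning it left the count for having under 20 UMIs. Those higher in that comparison went from 3 to 4 in CD at higher thresholds of the gates (with *Alox5*) and from 4 to 3 in HFD with TMM (without *Alox5*) and with gates set after thinning (without *Pla2g2d*). There *Pla2g2d* had a ratio of 1.32 on under 20 UMIs. The cause of the other changes was not tested. Counts over all genes changed too. Over all kept cells, 237 of 11170 genes were higher and 612 lower in the main setting. With cells weighted equally these were 390 and 518, with thinning 252 and 278 of 8523. With no minimum of UMIs they were 1397 and 2678 of 15902. Between Lyve1+ and Lyz1-high HFD cells, 616 of 8869 genes were lower, and 1078 with TMM. Counts over all genes under the other alternatives are not given here. Over all kept cells the log2 ratio of HFD over CD ranged from 1.83 to 2.21 for *Ptgs2*, from -3.06 to -1.87 for *Pla2g2d*, from -1.69 to -1.01 for *Ltc4s*, from -1.70 to -0.65 for *Hpgd* and from 0.87 to 1.22 for *Pla2g7*. In Lyve1+ cells *Ptgs2* ranged from 0.21 to 2.51 and *Hpgd* from -1.19 to 0.16. Counts of *Ptges*, and of most members in Timd4+ and Plac8+ HFD cells, were too few to bound a ratio closely.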
